A study of Danio rerio with 2 samples.

Results

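Translation initiation and elongation factors are the proteins that place a ribosome at the start of an mRNA and then carry it along the coding sequence. The genes described here were the rows of the deposited expression table whose Ensembl gene name begins with eif or eef, without the eif2ak kinases and eef2k. The table held 80 such genes among 26597 rows, and 78 of them reached at least 1 CPM (estimated counts scaled to library size) in 1 or both libraries, as did 19829 genes in all. The study sequenced RNA of 2 zebrafish libraries, 1 labelled WT and 1 labelled salvianolate-treated. Both are labelled as total RNA of cardiac tissue, the treatment stands in the genotype field, and the title of the treated library speaks of embryos. Marker genes of skeletal muscle, eye and hatching gland were also counted in both libraries, as given below. The levels are therefore not read as those of heart alone. Salvianolate is a drug made of salvianolic acids, phenolic compounds extracted from Salvia miltiorrhiza roots. Age, strain, dose, duration and the number of animals behind a library are not stated in the sources used here.

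In eukaryotes, eIF2 brings the initiator tRNA to the small ribosomal subunit, eIF3 holds the initiation complex together, and eIF4F binds the cap of the mRNA and unwinds its leader. During elongation eEF1A delivers aminoacyl-tRNAs, the eEF1B complex recharges eEF1A with GTP, and eEF2 moves the ribosome by a codon. These genes are used by all cells, and their mRNAs, those of eEF1A above all, are among the most abundant of growing embryonic tissue. Many of them exist in zebrafish as several copies, a trace of genome duplication in the fish lineage.

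The WT library held 19531808 estimated counts and the treated library 19295536. Each group was 1 library, so no difference below has a replicate check, no test between conditions was possible, and every interval covers counting error only. In bulk RNA, fewer cells of a type and less RNA per cell cannot be told apart. The 9 heart genes above 1 CPM summed to 717 CPM in WT and 662 CPM in treated, of which the actin gene actc1a held 624 and 575 CPM. The 4 skeletal muscle genes summed to 21336 and 22038 CPM, of which the actin gene actc1b held 14389 and 14860 CPM and the myosin gene myhb 21.3 and 59.2 CPM. MYL7, a myosin light chain gene of heart, stood at 19.2 and 14.7 CPM. MYH6 (ENSDARG00000079564), another myosin gene of heart, was higher in treated, at 30.0 and 39.1 CPM with a log2 ratio of 0.38 (0.23 to 0.54). Of the 9 heart genes, 6 had a ratio below 1, or 66.7% against 50.3% of all genes, and 3 had a ratio above 1. Directions follow the library labels, and an exchange of labels, which was not tested, would invert every ratio below. The series' design text reports more genes lower than higher in the treated group, whereas by a 2-fold rule these libraries had 2.69% of genes higher and 0.721% lower in treated.

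In the treated library most of the abundant translation factor mRNAs were lower than in WT by a small amount, and the low-level members were not lower as a group. At a mean FPKM, the deposited level scaled to gene length, of at least 100, 25 of 26 members had a ratio below 1. Their log2 ratios ran from -0.29 to 0.11, and 68.6% of all genes of that level were below 1. Under total count scaling 21 of the 26 were, against 57.8%. The 78 members took 3.64% of all counts in WT and 3.31% in treated. Summed over the members, the scaled level was 37182 CPM in WT and 32435 CPM in treated, a ratio of 0.872 (counting interval 0.869 to 0.875). Under the same scaling the sum over all genes above 1 CPM had a ratio of 0.957. For all genes with a mean FPKM of at least 100 it was 0.927. A ratio below 1 was found for 56 of 78 members, against 50.3% of all genes above 1 CPM, and the median log2 ratio was -0.11 against -0.0021 over all genes. With libraries scaled to their total counts, which moves every log2 ratio up by 0.063, 43 of 78 members stayed below 1, or 55.1% against 40% of all genes, and the median was -0.052, against 0.060 over all genes.

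No member reached a 2-fold difference. By the rule of a 2-fold difference with a counting interval that excludes a ratio of 1, 0 of 78 members were higher and 0 were lower. By a 1.2-fold rule 5 members were lower, 6.4% of 78 against 9.05% of all genes, and 2 were higher, 2.6% against 13.5%. Under total count scaling EIF2B1 and EIF4EBP3 stayed lower by this rule, against 5.95% of all genes, whereas EIF1AD and both EIF2S1 genes did not, and 3 members were higher against 17.4%. The share of members past 1.2-fold higher was thus below the background, and the share past 1.2-fold lower was nearer to it. By level, 8.7% of members between 20 and 100 FPKM were lower by this rule, against 10.9% of all genes. Under 20 FPKM the shares were 6.9% and 8.6%, and at 100 FPKM or more 3.8% and 11.1%. The counting interval lay below 1 for 37 members, 47.4% against 17.3% of all genes, and above 1 for 4, 5.1% against 17.4%. Such an interval narrows with depth, and the members are deeply counted genes, so the shares among genes of like level are given further below.

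**Figure D1:**
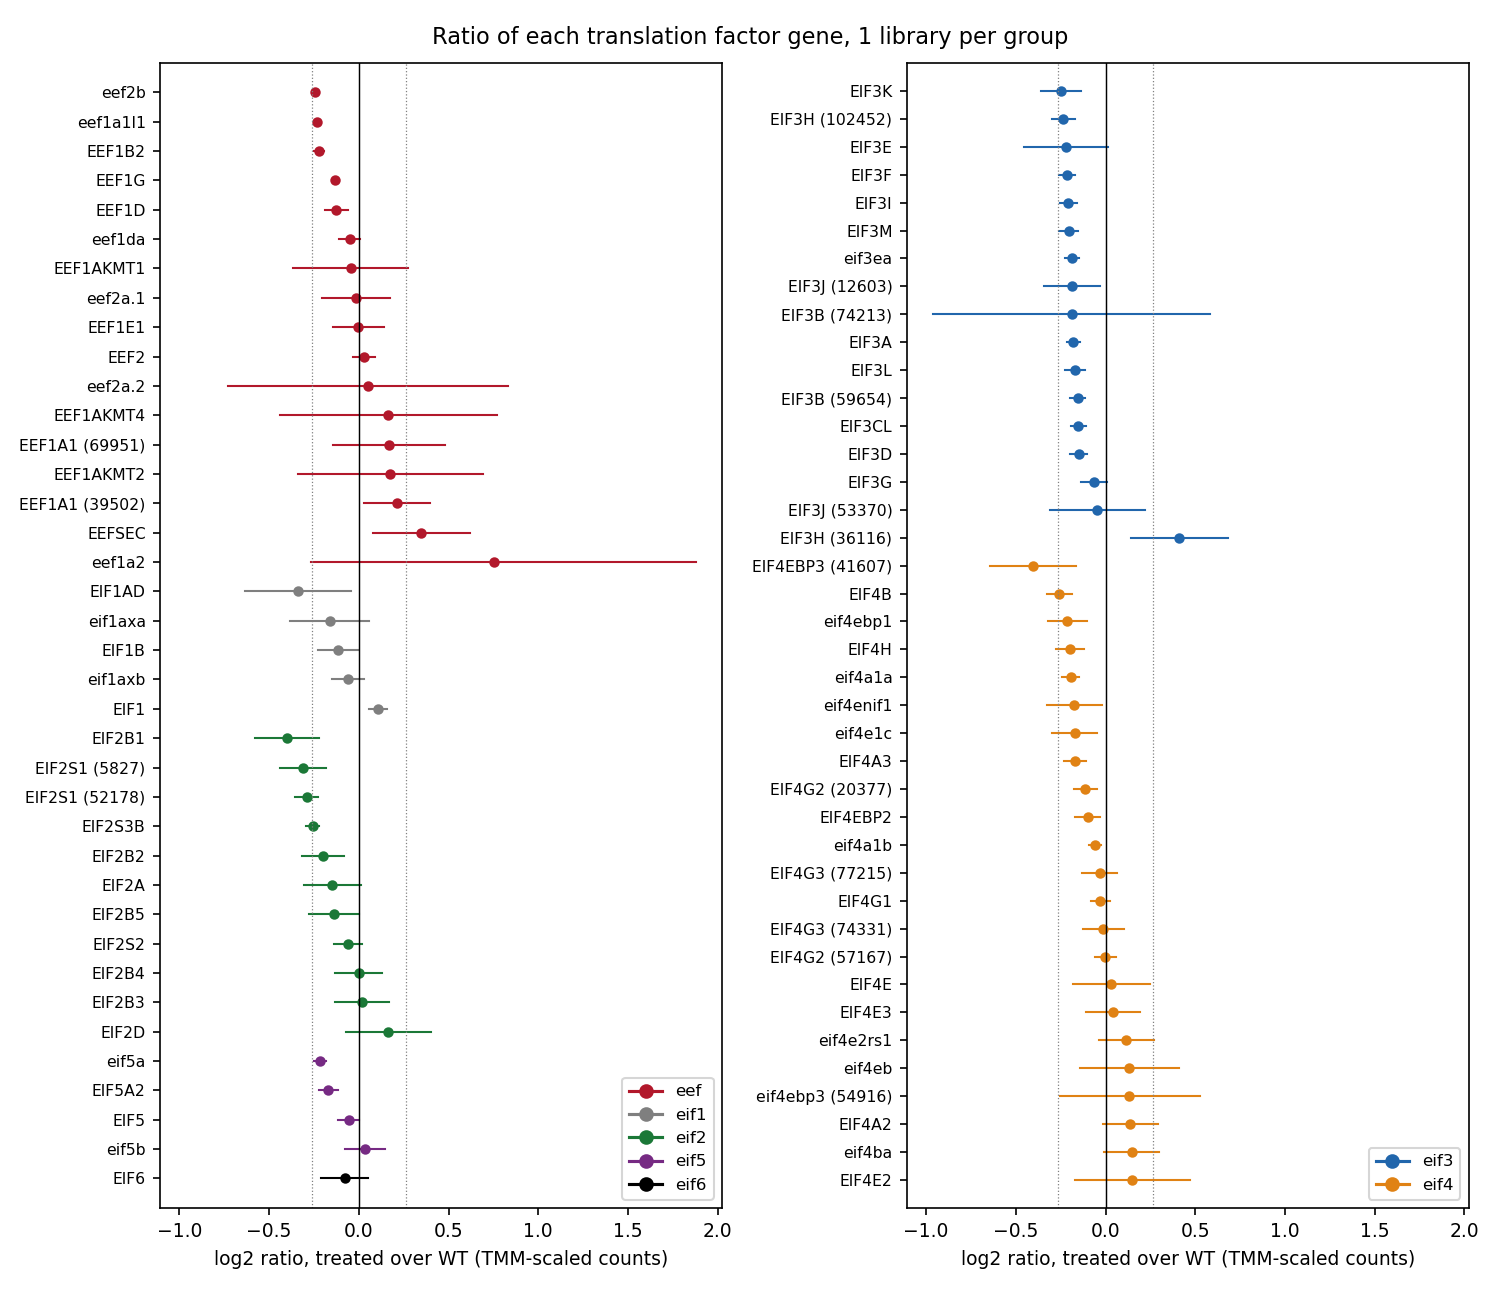
Log2 ratio of treated over WT for the 78 translation factor genes (x axis, TMM-scaled counts), with the exact 95% counting interval as a line and the name on the y axis; genes that share a name carry the end of their Ensembl ID. Dotted lines mark a 1.2-fold difference. Of the eIF3 genes 16 of 17 lie below 0, the exception being the less abundant EIF3H gene at 0.41, while eEF genes run from eef2b at -0.24 to eef1a2 at 0.75.

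Elongation factors formed 17 of the members. The main eEF1A gene, eef1a1l1 (ENSDARG00000020850), stood at 16080 CPM in WT and 13705 CPM in treated, for a log2 ratio of -0.23 (-0.24 to -0.22). The gene eef2b (ENSDARG00000100371), the main source of the translocase eEF2, stood at 6498 and 5484 CPM, giving a log2 ratio of -0.24 (-0.26 to -0.23). Both were thus about equally lower in the treated library. In the eEF1B exchange complex EEF1B2 had a ratio near these, and the other subunits had smaller differences. EEF1B2, which encodes an exchange subunit of the complex, stood at 978 and 839 CPM, for a log2 ratio of -0.22 (-0.25 to -0.19). EEF1G, the structural gamma subunit, stood at 1841 and 1683 CPM, giving a log2 ratio of -0.13 (-0.15 to -0.11). The delta subunit is read from 2 genes, and they differed in whether counting error covered the difference. EEF1D stood at 225 and 206 CPM, with a log2 ratio of -0.12 (-0.19 to -0.063). The other, eef1da, stood at 260 and 251 CPM, with a log2 ratio of -0.050 (-0.11 to 0.007) that turned to 0.012 under total count scaling.

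The other copies of eEF1A and eEF2 were at much lower levels, and the interval of 1 of these 6 excluded 0. EEF1A1 (ENSDARG00000039502) stood at 23.8 CPM in WT and 27.5 CPM in treated, for a log2 ratio of 0.21 (0.031 to 0.40). A second gene of the same name, EEF1A1 (ENSDARG00000069951), stood at 8.53 and 9.58 CPM, giving a log2 ratio of 0.17 (-0.14 to 0.48). The gene eef1a2, whose mammalian counterpart is the form of muscle and neurons, had 13 counts in WT and 23 in treated, or 0.680 and 1.17 CPM, and a log2 ratio of 0.75 (-0.26 to 1.88). It passed the 1 CPM limit only through the treated library, the library in which it is higher, and is the member just inside that limit. Of the members left out, eef1a1l3 had 1 count in each library and EIF4E1B had 1 count in WT and 0 in treated. These copies are a small part of the family, since eef1a1l1 held 99.8% of eEF1A counts in WT (exact 95% interval 99.78 to 99.81) and 99.7% in treated (99.70 to 99.74).

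Among the eEF2 genes, EEF2 (ENSDARG00000035256) stood at 224 and 229 CPM, for a log2 ratio of 0.030 (-0.030 to 0.091). The neighbours in name eef2a.1 and eef2a.2 had log2 ratios of -0.017 (-0.21 to 0.17) for the first and 0.050 (-0.73 to 0.83) for the second. Their estimated counts were not whole numbers, a sign that reads were divided between genes. The 3 copies beside eef2b had a summed log2 ratio of 0.026 (-0.031 to 0.083), so that the share of eef2b in eEF2 counts was 96.3% in WT (96.2 to 96.4) and 95.6% in treated (95.4 to 95.7).

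Genes with the eef prefix that do not carry the elongation cycle itself were at low levels. EEFSEC, the factor that delivers selenocysteine tRNA, stood at 10.6 and 13.4 CPM, giving a log2 ratio of 0.35 (0.077 to 0.62), and was the only eef gene past 1.2-fold with an interval that excluded 1. The ratio of eef1a2 was larger, at 1.69, but its interval included 1, and under total count scaling EEF1A1 (ENSDARG00000039502) joined EEFSEC at a log2 ratio of 0.28. EEF1E1, a scaffold protein of the aminoacyl-tRNA synthetase complex, stood at 41.2 CPM in both libraries. The genes of 3 methyltransferases that modify eEF1A, EEF1AKMT1, EEF1AKMT2 and EEF1AKMT4, had log2 ratios of -0.045, 0.17 and 0.16, each with an interval that included 0. Over the 17 eef genes the median log2 ratio was -0.0018, whereas their summed counts had a ratio of 0.859 (0.855 to 0.862), for a log2 ratio of -0.22. The sum is set by eef1a1l1 and eef2b, whereas the median is the value of EEF1E1, a gene outside the elongation cycle. Without eef1a1l1 the summed log2 ratio was -0.20 and the median 0.014. Over the 12 eef genes without EEF1E1, EEFSEC and the methyltransferases, the median was -0.034.

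**Figure D2:**
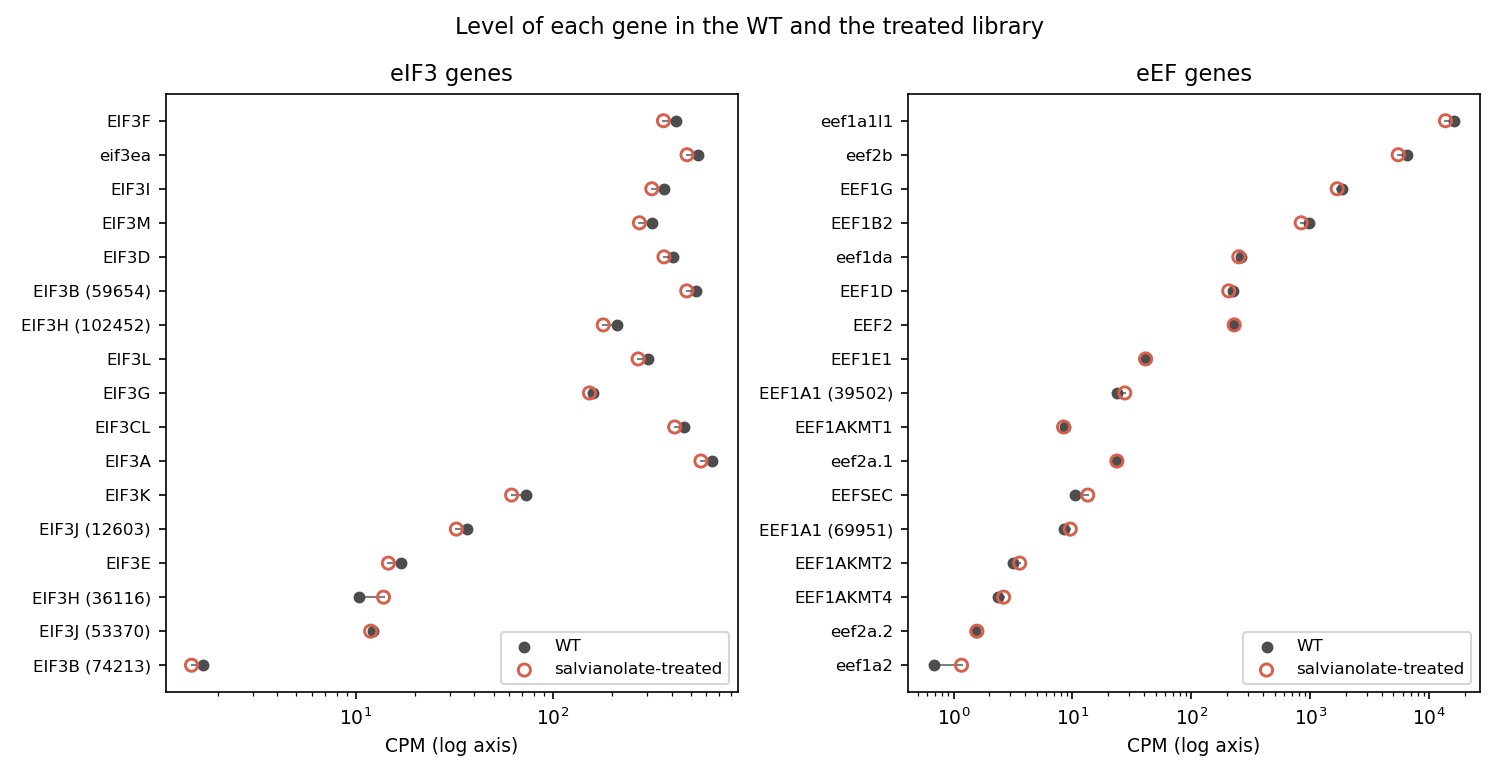
CPM (x axis, log scale) of each of the 17 eIF3 genes and 17 eEF genes in the WT library (filled) and the treated library (open), ordered by FPKM in WT. The treated symbol lies to the left of the WT symbol for 16 of 17 eIF3 genes, and for the most abundant eEF genes; low eEF copies overlap or lie to the right.

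The main eIF3 genes had similar ratios, all below 1. The 17 genes cover 13 subunits, a to m, and for 13 of 13 subunits the most abundant copy was lower in the treated library under TMM, total count, median-of-ratios and upper-quartile scaling alike. Their log2 ratios ran from -0.25 to -0.066 with a median of -0.19, and the counting interval lay below 0 for 12 of 13. Over all genes above 1 CPM, 50.3% had a ratio below 1 and 17.3% an interval below it. Among all genes with a mean FPKM of at least 100 these shares were 68.6% and 59.1%. EIF3A, the largest subunit and scaffold, stood at 638 CPM in WT and 563 CPM in treated, giving a log2 ratio of -0.18 (-0.22 to -0.14). EIF3B (ENSDARG00000059654), its partner in the core, stood at 532 and 478 CPM, for a log2 ratio of -0.16 (-0.20 to -0.12). EIF3CL, named after subunit c, stood at 461 and 415 CPM, giving a log2 ratio of -0.15 (-0.19 to -0.11). These core subunits thus differed from each other by less than their intervals span. EIF3D, a subunit that can itself bind the cap in mammals, stood at 406 and 366 CPM, for a log2 ratio of -0.15 (-0.20 to -0.10). The main gene of subunit e, eif3ea, stood at 546 and 479 CPM, giving a log2 ratio of -0.19 (-0.23 to -0.15). EIF3F, with a deubiquitinase-like fold, stood at 423 and 364 CPM, for a log2 ratio of -0.22 (-0.26 to -0.17).

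Most of the remaining subunits were alike. EIF3H (ENSDARG00000102452) stood at 212 and 180 CPM, EIF3I at 366 and 318 CPM, EIF3L at 305 and 271 CPM, and EIF3M at 317 and 275 CPM. Their log2 ratios were -0.24, -0.21, -0.17 and -0.20. EIF3K, a subunit at the edge of the complex, had the lowest ratio of the class, with 73.5 and 61.8 CPM and a log2 ratio of -0.25 (-0.36 to -0.14). EIF3J (ENSDARG00000012603), a loosely bound subunit, stood at 36.9 and 32.4 CPM, giving a log2 ratio of -0.19 (-0.34 to -0.030). The exception among the main copies was EIF3G, an RNA-binding subunit, at 160 and 153 CPM with a log2 ratio of -0.066 (-0.14 to 0.007).

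The 4 minor eIF3 copies were less uniform. EIF3H (ENSDARG00000036116) stood at 10.4 CPM in WT and 13.8 CPM in treated, for a log2 ratio of 0.41 (0.14 to 0.68), opposite to the main EIF3H gene, whose share of the pair was 95.3% (94.6 to 95.9) in WT and 92.9% (92.0 to 93.7) in treated. EIF3E (ENSDARG00000002549) had 17.1 and 14.7 CPM and a log2 ratio of -0.22 (-0.45 to 0.014). EIF3J (ENSDARG00000053370) and EIF3B (ENSDARG00000074213) had log2 ratios of -0.045 (-0.31 to 0.22) for the former and -0.18 (-0.96 to 0.58) for EIF3B, which had 32 and 29 counts. Only EIF3H of these 4 thus differed beyond counting error.

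The eIF2 prefix covers the trimeric factor, its exchange factor eIF2B and 2 proteins of alternative initiation. The alpha subunit, whose phosphorylation restrains initiation under stress, is read from 2 genes named EIF2S1, and both were past 1.2-fold, though neither was under total count scaling, at -0.23 and -0.25. EIF2S1 (ENSDARG00000052178) stood at 228 CPM in WT and 187 CPM in treated, giving a log2 ratio of -0.29 (-0.35 to -0.23). EIF2S1 (ENSDARG00000005827) stood at 58.9 and 47.5 CPM, for a log2 ratio of -0.31 (-0.44 to -0.19). The ratio of the alpha subunit did not depend on the copy, unlike that of eEF1A. EIF2S3B, the GTP-binding gamma subunit, stood at 626 and 524 CPM, giving a log2 ratio of -0.26 (-0.30 to -0.22). EIF2S2, the beta subunit, differed less, at 142 and 136 CPM with a log2 ratio of -0.061 (-0.14 to 0.017), which became 0.002 under total count scaling. Over the 4 subunit genes the summed counts had a ratio of 0.847 (0.830 to 0.865).

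Of the 5 eIF2B subunit genes, EIF2B1 (alpha) had the largest difference, with 30.7 and 23.3 CPM and a log2 ratio of -0.40 (-0.58 to -0.22). EIF2B2 (beta) stood at 63.8 and 55.6 CPM, for a log2 ratio of -0.20 (-0.32 to -0.080). EIF2B5 (epsilon, the catalytic subunit) stood at 44.8 and 40.8 CPM, giving a log2 ratio of -0.14 (-0.28 to 0.003). The subunits gamma and delta stood apart from these: EIF2B3 had 37.2 and 37.6 CPM and EIF2B4 49.3 CPM in both libraries. EIF2A and EIF2D, which are not subunits of eIF2, had log2 ratios of -0.15 (-0.30 to 0.010) for EIF2A and 0.16 (-0.073 to 0.40) for EIF2D. The median of the 11 eif2 genes was -0.15.

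Genes of the cap-binding complex eIF4F, taken with their relatives of the same names, were closer to equal levels than those of eIF2 and eIF3. The scaffold eIF4G is read from 5 genes, and 4 of them had an interval that included 0. EIF4G1 stood at 324.5 CPM in WT and 318 CPM in treated, for a log2 ratio of -0.029 (-0.080 to 0.022). The EIF4G3 genes had log2 ratios of -0.033 (ENSDARG00000077215) and -0.013 (ENSDARG00000074331). EIF4G2, a related protein that lacks the cap-binding partner's site, had 241 CPM in both libraries for ENSDARG00000057167 and 220 and 203 CPM for ENSDARG00000020377, the latter with a log2 ratio of -0.11 (-0.18 to -0.050). All 5 ratios were below 1 under TMM scaling, and 1 of 5 was under total count scaling, so no direction is given for eIF4G.

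The cap-binding protein eIF4E is read from 6 genes, of which 5 had a ratio above 1 with an interval that included it. The exception was the most abundant by FPKM, eif4e1c, a form known from fish, at 57.0 and 50.6 CPM with a log2 ratio of -0.17 (-0.30 to -0.046). EIF4E stood at 18.3 and 18.7 CPM and eif4eb at 10.8 and 11.9 CPM. EIF4E2 and eif4e2rs1, relatives of the mammalian repressor 4EHP, had ratios of 0.15 (-0.17 to 0.47) and 0.12 (-0.038 to 0.27) on the log2 scale, and EIF4E3 had 0.041 (-0.11 to 0.19). The counts of the 6 genes summed to 164 CPM in both libraries, giving a log2 ratio of -0.0015 (-0.073 to 0.070). Within that sum the share of eif4e1c was 34.8% (33.1 to 36.5) in WT and 30.9% (29.3 to 32.5) in treated. By FPKM the 6 genes did not sum to equal levels, at 142 in WT and 135 in treated. Of these sums eif4e1c held 55.9% and 50.0%.

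The helicase eIF4A is read from 3 genes with different ratios. The gene eif4a1a stood at 404 and 353 CPM, for a log2 ratio of -0.19 (-0.24 to -0.15). The more abundant eif4a1b stood at 696 and 668 CPM, giving a log2 ratio of -0.058 (-0.093 to -0.024) that became 0.004 under total count scaling. EIF4A2 stood at 35.2 and 38.7 CPM, for a log2 ratio of 0.14 (-0.013 to 0.29). The 14 genes of eIF4A, eIF4E and eIF4G here include the EIF4G2 genes, EIF4E3 and the relatives of 4EHP. Their median log2 ratio was -0.0070, which turned to 0.056 under total count scaling, and their summed log2 ratio was -0.066 (-0.086 to -0.047). The counting interval lay below 0 for 4 of these 14 genes, or 28.6%, and for 12 of 13 main eIF3 subunits, or 92.3%. The 14 genes include minor copies, and with its minor copies eIF3 had 12 of 17 genes below 0, or 70.6%. Such an interval narrows with depth. The median level in WT was 24.2 FPKM for the 14 genes, 170 FPKM for the main eIF3 copies and 146 FPKM for all 17 eIF3 genes. Among all genes it lay below 0 for 36.3% between 20 and 100 FPKM and for 59.1% at 100 FPKM or more.

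Partners and regulators of eIF4F were mostly lower. EIF4B, which stimulates the helicase, stood at 185 and 155 CPM, giving a log2 ratio of -0.26 (-0.33 to -0.19), whereas its second copy eif4ba stood at 33.7 and 37.3 CPM, for a log2 ratio of 0.15 (-0.009 to 0.30). EIF4H, a relative of EIF4B, stood at 146 and 128 CPM, giving a log2 ratio of -0.20 (-0.27 to -0.12). The 4E-BP genes encode small repressors that mTOR signalling releases from eIF4E, and 3 of 4 had an interval below 0. That share of 75% stands beside 17.3% of all genes and 36.3% of those between 20 and 100 FPKM. EIF4EBP3 and eif4ebp3 lie under 20 FPKM, where the share over all genes was 12.2%. EIF4EBP3 (ENSDARG00000041607) stood at 17.1 and 12.9 CPM, the lowest log2 ratio of all members at -0.40 (-0.65 to -0.16). The gene eif4ebp1 stood at 76.3 and 65.8 CPM, for a log2 ratio of -0.21 (-0.32 to -0.10). EIF4EBP2 stood at 172 and 160 CPM, giving a log2 ratio of -0.10 (-0.17 to -0.029) that became -0.037 under total count scaling. The fourth, eif4ebp3 (ENSDARG00000054916), stood at 5.55 and 6.09 CPM. EIF4A3, a helicase of the exon junction complex, and eif4enif1, the transporter of eIF4E, had log2 ratios of -0.17 (-0.23 to -0.11) and -0.17 (-0.33 to -0.019).

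Among the remaining initiation factors, EIF1 was the abundant member with the opposite direction. EIF1, which guards the choice of the start codon, stood at 315 CPM in WT and 339 CPM in treated, for a log2 ratio of 0.11 (0.056 to 0.16), and it stayed above 0 under each scaling. EIF1B, a close relative, stood at 69.7 and 64.3 CPM, giving a log2 ratio of -0.12 (-0.23 to -0.004). The eIF1A genes eif1axb and eif1axa had log2 ratios of -0.061 (-0.15 to 0.027) and -0.16 (-0.38 to 0.057). EIF1AD, a nuclear protein with an eIF1A-like domain, stood at 11.1 and 8.82 CPM, for a log2 ratio of -0.34 (-0.63 to -0.041).

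The eIF5A genes encode the hypusine-bearing factor that relieves stalled ribosomes, and both were lower. The gene eif5a stood at 775 and 666 CPM, giving a log2 ratio of -0.22 (-0.25 to -0.18), and EIF5A2 at 309 and 275 CPM, for a log2 ratio of -0.17 (-0.22 to -0.12). EIF5, the GTPase activator of eIF2, stood at 246 and 236 CPM, giving a log2 ratio of -0.057 (-0.12 to 0.002). EIF6, which keeps free large subunits from joining, stood at 49.7 and 47.0 CPM, for a log2 ratio of -0.079 (-0.21 to 0.053). For eif5b, the GTPase of subunit joining, the deposited units disagreed. Its counts were 1281 and 1352, giving a log2 ratio of 0.033 (-0.079 to 0.14), whereas its FPKM was 10.4 and 14.8. That gives a log2 ratio of 0.43 once 0.5 is added to each FPKM and the FPKM ratios are centred on the same median over all genes as the count ratios.

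Levels between genes were compared by the deposited FPKM, which is scaled to gene length. The eEF1A genes summed to 9031 FPKM in WT and 8043 in treated, the eEF2 genes to 2307 and 2047, and the eIF5A genes to 1267 and 1153. The main copies of the 13 eIF3 subunits had a median level of 170 FPKM in WT and 151 in treated, within a range from 20.02 for EIF3J to 463 for EIF3F in WT. The genes of eIF4A summed to 497 and 485 FPKM. Those of eIF4G summed to 228 and 223 and those of eIF4E to 142 and 135, with the relatives named above included. The mRNA level of eIF4A was thus above that of its partners in eIF4F in both libraries. EIF2S3B, at 398 and 340 FPKM, had a higher level than the genes of the alpha subunit, which summed to 204 and 174 FPKM.

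Ratios of members went with level. Of 26 members with a mean FPKM of at least 100, 25 had a ratio below 1, the exception being EIF1, and 21 of 26 were below 1 under total count scaling. Their median log2 ratio was -0.18, for the 6 eef genes among them as for the 20 eif genes. Among all 701 genes of that level 68.6% were below 1 and the median was -0.11. Among the 600 that were neither translation factors nor ribosomal proteins 63.5% were below 1 and the median was -0.068. The counting interval lay below 1 for 21 of the 26 members, or 80.8%, against 53.0% of those 600 genes. Between 20 and 100 FPKM it did so for 52.2% of members against 36.3% of all genes, and under 20 FPKM for 13.8% against 12.2%. Of 23 members between 20 and 100 FPKM, 18 were below 1, or 78.3% against 64.0% of all genes of that level. Of 29 members under 20 FPKM, 13 were below 1, or 44.8% against 47.1%, and their median was 0.033. Above 20 FPKM the share of lower members was thus above that of all genes of like level, and under 20 FPKM it was close to it. Under total count scaling, 80.8% of the members at 100 FPKM or more were below 1 against 51.5% of the 600 other genes, whose median was -0.0051. Between 20 and 100 FPKM the shares were then 60.9% of members and 48.7% of all genes, and under 20 FPKM 27.6% and 37.7%. That abundant genes in general lay below 1 more often than not thus held under TMM scaling, and between 20 and 100 FPKM not under total count scaling.

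**Figure D3:**
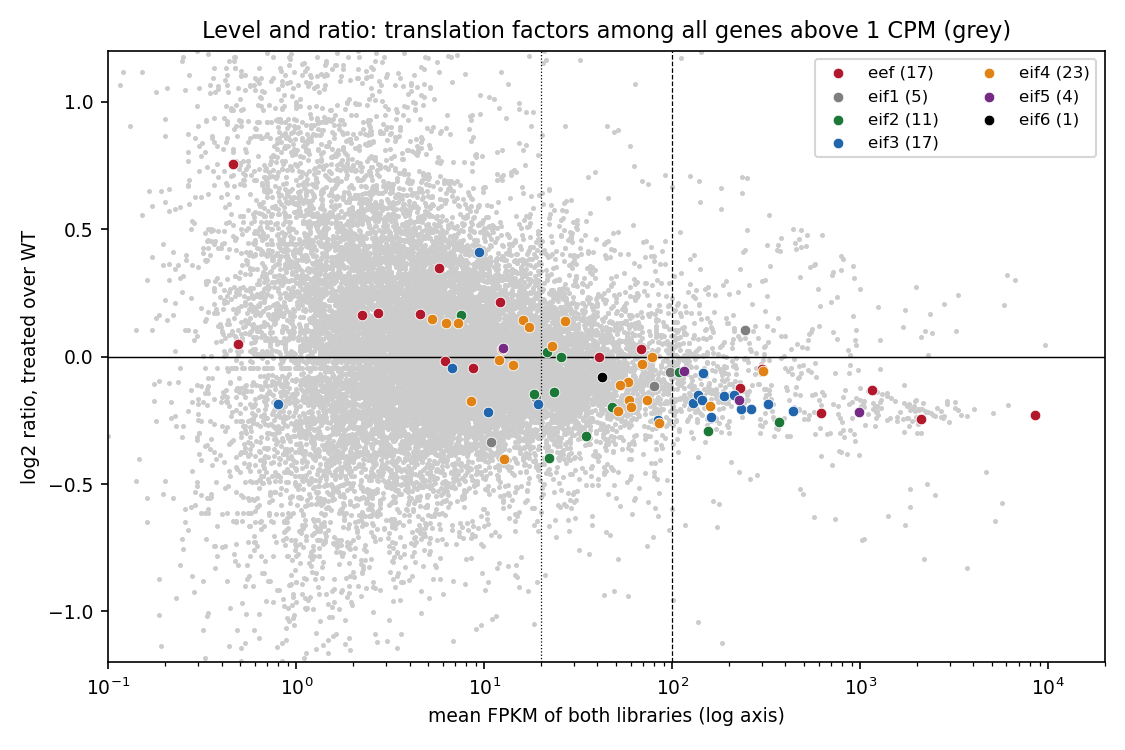
Mean FPKM of both libraries (x axis, log scale) against the log2 ratio of treated over WT (y axis, cut at 1.2) for the 78 translation factor genes, coloured by class, and for all genes above 1 CPM in grey; dotted and dashed lines mark 20 and 100 FPKM. To the right of the dashed line 25 of 26 members lie below 0, and to the left of the dotted line 13 of 29 do.

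By prefix, the median of the eef genes exceeded that of the eif2 genes by 0.15, that of the eif3 genes by 0.18 and that of the eif4 genes by 0.031 on the log2 scale. The classes also differed in level, with a median in WT of 10.85 FPKM for eef, 24.6 for eif2, 146 for eif3 and 25.8 for eif4. At 100 FPKM or more, the eef genes and the eif genes each had a median of -0.18. By summed counts the eef genes were not the highest. The eef genes had the lowest log2 ratio at -0.22 (-0.23 to -0.21), followed by eif2 at -0.21 (-0.24 to -0.19), eif3 at -0.18 (-0.19 to -0.16) and eif4 at -0.096 (-0.11 to -0.079). The interval of eif2 overlapped those of eef and of eif3, and that of eif4 overlapped none of the others. Summed log2 ratios were -0.063 over all genes above 1 CPM and -0.11 over all genes at 100 FPKM or more. The eif4 sum lay between these values. Restricted to the core factors, the 12 eef genes had a median of -0.034, the 4 eIF2 subunits -0.27 and the 17 eif4 genes -0.013, so that the difference between eef and eif4 turned to -0.020. The summed log2 ratios of these core genes were -0.22 (-0.23 to -0.21) for eef, -0.24 (-0.27 to -0.21) for eIF2 and -0.083 (-0.10 to -0.065) for eif4. Core eef genes thus lay above eIF2 and below eif4 by both measures, with overlapping intervals for the sums of eef and eIF2, and above eif3 by the median but below it by the sum. Among eif2, eif3 and eif4, eif4 was nearest to 0 by both measures, with all members as with core genes. With 1 library per group none of these differences could be tested between conditions.

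Other genes of translation, taken at all levels, had medians from -0.21 to -0.051. The median was -0.11 for all 78 members and -0.11 for the 23 between 20 and 100 FPKM. For the 26 members at 100 FPKM or more it was -0.18. Of 19 cytosolic aminoacyl-tRNA synthetase genes, 17 had a ratio below 1, or 89.5% against 50.3% of all genes. Their median level in WT was 39.4 FPKM, and 64.0% of all genes between 20 and 100 FPKM were below 1. Of these 19, 4 were past 1.2-fold lower and 0 higher. The median log2 ratio was -0.13, within a range from FARSA at -0.32 to QARS1 at 0.031. Those past 1.2-fold, 21.1% against 9.05% of all genes, were AARS1, FARSA, IARS1 and TARS1, and under total count scaling 0 of 19 were, against 5.95%. The most abundant by FPKM, KARS1, stood at 309 and 286 CPM. Of 6 termination and recycling genes, with a median of -0.12, 4 had an interval below 1, or 66.7% against 17.3% of all genes. Between 20 and 100 FPKM that share over all genes was 36.3%. GSPT1, the release factor eRF3, was lowest at 307 and 275 CPM, with a log2 ratio of -0.16. The second gene of that name, gspt1, was highest at 33.6 and 35.7 CPM. Among poly(A)-binding proteins and their partners pabpc1a, the most abundant, stood at 1361 and 1210 CPM, the lowest log2 ratio of these 6 genes at -0.17. PAIP1 had the highest at 0.12, with an interval that included 0 (-0.041 to 0.28). PABPC4, at 223 and 241 CPM, had a log2 ratio of 0.11 with an interval above 0 (0.048 to 0.17). The median of these 6 genes was -0.051, which turned to 0.012 under total count scaling. The 76 ribosomal protein genes had a median of -0.21 with 76 of 76 ratios below 1, and 75 of 76 under total count scaling. Among all genes at 100 FPKM or more these shares were 68.6% and 57.8%. RPL29 had the lowest log2 ratio at -0.31, and RPS2, the most abundant by FPKM, stood at 3902 and 3381 CPM.

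The list of kinases that act on these factors held 11 genes, among them RPTOR, a partner of MTOR that is not itself a kinase. Of the 11, 9 had a ratio below 1, or 81.8% against 50.3% of all genes. Under total count scaling 6 did, or 54.5% against 40%. Of 11 genes, 3 were past 1.2-fold lower, or 27.3% against 9.05% of all genes, and each of the 3 encodes a kinase of eIF4E. These were both genes named MKNK2, at -0.46 (-0.71 to -0.22) and -0.28 (-0.40 to -0.15), and mknk1 at -0.31 (-0.59 to -0.045). Under total count scaling the first MKNK2 gene alone stayed past 1.2-fold, at -0.40, beside -0.21 and -0.25 for the others. The eIF2 kinase gene eif2ak2 had the highest ratio at 2.83 and 3.85 CPM, 0.44 (-0.074 to 0.98). The eEF2 kinase gene EEF2K, the most abundant of the list by FPKM, stood at 91.6 and 86.0 CPM, and MTOR at 113 and 108 CPM, each with an interval that included 0. Genes known in mammals for a terminal oligopyrimidine start, by which mTOR signalling controls their translation, made up 16 of the 78 members. They had a median of -0.16 and a summed log2 ratio of -0.22, against -0.089 and -0.14 for the other 62, and that list holds eef1a1l1 and eef2b. The share below 1 went the other way, at 68.8% against 72.6%. The groups also differed in level, with a median of 202 FPKM in WT against 38.8.

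**Figure D4:**
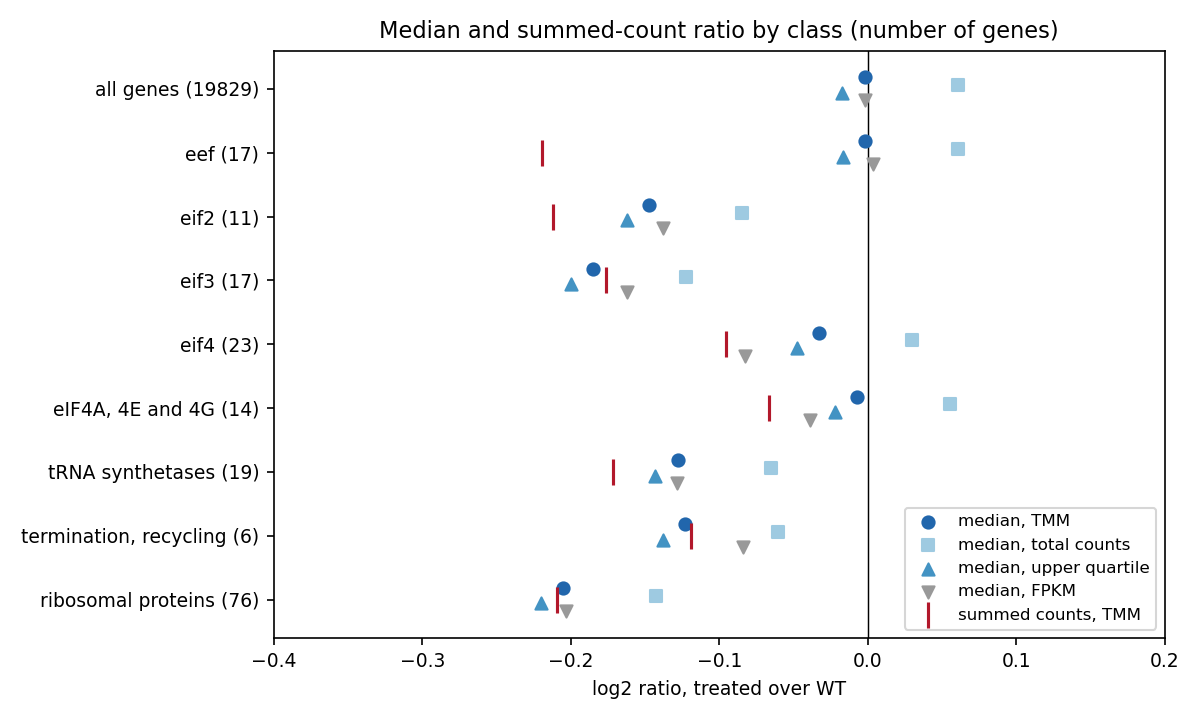
Log2 ratio of treated over WT (x axis) for all genes, translation factor classes and other translation genes (y axis, number of genes in brackets): medians under 4 ways of scaling, and the ratio of summed counts as a red bar. No red bar is drawn for all genes, whose summed log2 ratio was -0.063. The eef median lies at -0.0018 and its summed ratio at -0.22, while both values of the eif3 and of the ribosomal protein genes lie between -0.22 and -0.16 except under total count scaling.

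Marker genes of other cell types and of dividing cells also differed between the libraries. Of 8 cell cycle genes, 8 had an interval below 1, against 17.3% of all genes and 36.3% of those between 20 and 100 FPKM. These 8 genes summed to 1603 CPM in WT and 1317 CPM in treated, giving a log2 ratio of -0.28 (-0.31 to -0.26). The 4 erythroid genes found summed to 4435 and 2869 CPM, and the 3 hatching gland genes to 55.0 and 9.84 CPM, all lower in treated. The 7 eye genes were all higher, with a median log2 ratio of 2.31. Their sum of 1169 and 1956 CPM is mostly the crystallin gene crybb1l2 at 1005.5 and 1246.5 CPM. Of the 7, 5 were past 2-fold higher, against 2.69% of all genes. Of the 4 skeletal muscle genes, 3 had an interval above 1, against 17.4% of all genes and 23.1% at 100 FPKM or more. Their log2 ratios were small for the deeply counted actc1b and ckma, at 0.046 and 0.078, and 1.47 for myhb. The remaining gene, ckmb, had 0.0052 with an interval that included 0. Of 9 heart genes above 1 CPM, 4 had an interval below 1, or 44.4%, and 1 above, or 11.1%. No marker found in the table was at 0 in either library. The part of such shifts in tissue composition or stage in the lower factor mRNAs was not tested.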

How the data were processed

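Per the file headers, the deposited table gives estimated counts and FPKM per gene. The estimated (expected) counts were deposited without normalisation and were rounded here to whole numbers. The deposited FPKM served for levels between genes and as an alternative. The single-library files held the same counts for all 26597 genes. The build was danRer11 and the tools included HISAT2, StringTie 1.3.1, edgeR, DESeq2, Bowtie2 2.2.8 and fastp 0.18.0, per the submitters' processing notes; not given in the sources used here were their roles, their settings and the annotation. Reads of near-identical copies may be split between genes, so values of single copies are uncertain; 6 members had counts that were not whole.

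Names came from a table of IDs, compared in lower case; 23499 of 25197 Ensembl IDs had one, and 1400 loci had no ID. CPM used TMM-scaled library sizes (edgeR 4.0.16, R 4.3.3). The log2 ratio added 0.5 counts; its exact 95% interval is Clopper-Pearson (scipy 1.17.1). A count of 3 equals 0.157 CPM in WT and 0.152 in treated. Alternatives were total count, upper-quartile and DESeq2 1.42.0 scaling, other floors and priors, FPKM with a pseudocount of 0.5, and narrower member sets. The calculation was tested on simulated data. Named genes were all eef members, the eIF2, eIF3, eIF4A, eIF4E, eIF4G and 4E-BP genes, and the extremes and most abundant genes of each class and list. The remaining members and PABPC4 were named after their values were seen. Members and lists were chosen with earlier results of these data known, and the level classes and the split by copy after seeing the values. The highest member of 1 list is not reported here.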

Additional observations from a re-analysis of the deposited data

How the results depend on the processing

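No paired analysis was possible because there is a single library per group. Under total count scaling the medians of eef and eif4 turned to 0.061 and 0.030, the members lower by 1.2-fold went from 5 to 2, and the summed log2 ratios were -0.16 for eef, -0.15 for eif2, -0.11 for eif3 and -0.033 for eif4; the scaling moves all ratios by 0.063. Upper-quartile scaling gave 8 members lower by 1.2-fold, and summed log2 ratios of -0.23 for eef and -0.19 for eif3. With FPKM the eef median was 0.0032 and 5 members were higher by 1.2-fold, where no counting interval applies. Without the most abundant member the eef median was 0.014, and the summed log2 ratios were -0.20 for eef and -0.17 for eif2. With core factors only, 2 members were lower and 1 higher by 1.2-fold, the summed eif2 ratio was -0.24 and the eef median minus the eif4 median was -0.020; fewer genes enter these settings. The eif2 and eif3 medians stayed below 0 in each setting that gave a value; no eif2 gene has a name in lower case. Of 78 members, 13 changed sign under total counts, 1 of them with an interval that excluded 1. Levels of a few CPM limit the low copies, where a difference of 1.2-fold is not detectable.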
